A study of Danio rerio with 32 samples.

Results

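The sodium pump (sodium-potassium ATPase) spends ATP to carry sodium out of cells and potassium in, which sets the gradients that neurons use to fire and to recover between action potentials. Each pump joins a catalytic alpha subunit, which binds ions and ATP, to a glycosylated beta subunit, which the alpha subunit needs to fold and to reach the membrane. Small FXYD proteins can bind the pump and tune it. In mammals, ATP1B2 is found in glia as well as neurons.

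The beta subunit genes were followed in V2a interneurons, excitatory spinal neurons that drive locomotion, of zebrafish with a transgenic GFP reporter for these cells. Sodium pump genes were chosen by symbol, apart from ENSDARG00000076833, which was listed by its Ensembl ID. The 10 listed names, this ID among them, matched 11 of the 42370 rows, and 6 of these, the beta genes, are described. They are ATP1B1 (ENSDARG00000013144), ATP1B1 (ENSDARG00000076833), ATP1B2 (ENSDARG00000034424), ATP1B2 (ENSDARG00000099203), atp1b3a (ENSDARG00000015790) and atp1b3b (ENSDARG00000042837). All 6 passed the filter on low values, which asked for at least 1 FPKM in 5 or more of the 32 libraries. How reads shared by near-identical copies were counted is not given in the sources used here, so the split within each pair of copies is uncertain.

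Every library came from reporter-positive cells sorted out of spinal cord segments 1 to 7, and a rhodamine dextran tracer, carried back along axons, split those cells further. Tracer-positive cells (D) were taken from uninjured fish (Dcon, n = 5 libraries) and, as cells with a regrown axon, at 3 weeks (D3W, n = 5) and 8 weeks (D8W, n = 6) after a spinal cord injury. Tracer-negative cells (G) were taken from uninjured fish (Gcon, n = 6) and, as cells without a regrown axon, at 3 weeks (G3W, n = 5) and 8 weeks (G8W, n = 5). Tissue was pooled from 20 fish per condition, fish age is not given in the labels used here, and the reporter marks cells by a promoter, not by identity in each cell. Whether the libraries within a group stem from different fish is not stated, and the p-values therefore reflect the spread among these libraries alone, part of which may be technical.

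The deposited values are FPKM, read fragments normalised for how long a gene is and how deeply its library was read. Library totals inferred from the steps in the values were 9.42 to 27.7 M fragments, at which 3 fragments in a gene of 1 kb equal 0.108 to 0.318 FPKM. Each library had 7755 to 18414 genes that reached 1 FPKM, and D3W replicates 3 and 5 had the fewest. The labelled cell type was checked against its markers, of which SLC17A6 (ENSDARG00000041150, a vesicular glutamate transporter) had group medians of 40.7 to 91.4 FPKM. VSX1 was at 0 in every D3W, Dcon and Gcon library. One library goes against its label in some markers: Dcon replicate 4 had the lowest SLC17A6 (ENSDARG00000041150) of the 32 libraries, at 5.81 FPKM. The other SLC17A6 copy (ENSDARG00000001127) was at 18.1 FPKM there, within the 9.79 to 32.6 FPKM of the other Dcon libraries. The same library had the highest levels of the cholinergic genes CHAT (389 FPKM), SLC5A7 (ENSDARG00000074860, 459 FPKM) and SLC18A3 (ENSDARG00000006356, 268 FPKM). The other listed cholinergic markers were not highest there. ISL1, SLC5A7 (ENSDARG00000102336) and SLC18A3 (ENSDARG00000107527) were at 0 FPKM, the ISL2 copies at 0 and 0.867 FPKM, and MNX1 below 3 other libraries. In the other 4 Dcon libraries SLC17A6 (ENSDARG00000041150) was at 51.5 to 140 FPKM and CHAT at 1.26 to 59.0 FPKM. Dcon replicate 4 also held 9213 FPKM of red blood cell markers, against at most 72.0 FPKM in the other Dcon libraries. Values that rest on Dcon are given without Dcon replicate 4 wherever that changes a call or a placing of groups, and for some other values. Oligodendrocyte and Schwann cell markers summed to 2100 to 22640 FPKM over the 32 libraries, so RNA of other cells was present throughout.

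The largest change among the beta genes was in ATP1B1 (ENSDARG00000076833), which was lower in tracer-positive cells at both times after injury than in Dcon. D3W and D8W hold only cells with a regrown axon. A change within cells and a difference in which cells were traced therefore cannot be told apart. Its level was 1166, 1284, 1214, 2701 and 1179.7 FPKM in Dcon replicates 1 to 5 and 562, 597, 37.2, 129 and 169.7 FPKM in D3W replicates 1 to 5. In D8W the lowest library had 112, the median was 161 and the highest had 398 FPKM. Every D3W and every D8W library lay below every Dcon library, while D3W and D8W overlapped. Among tracer-negative cells Gcon ran from 205 through a median of 519 to 765 FPKM. G3W libraries had 219, 310.4, 195, 222 and 86.6 FPKM, and G8W libraries 155, 149, 190.01, 298 and 141 FPKM. Each injured tracer-negative group overlapped Gcon through Gcon replicate 3 alone, at 205 FPKM, since the other Gcon libraries began at 469 FPKM. The 4 injured groups overlapped one another.

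Mean levels of ENSDARG00000076833 were 299 ± 261 FPKM in D3W (SD, n = 5) and 1509 ± 668 FPKM in Dcon (SD, n = 5), a log2 fold change of -2.52 (SE 0.463, limma adjusted p = 0.00499 by Benjamini-Hochberg). In D8W the mean was 204 ± 111 FPKM (SD, n = 6), a log2 fold change of -2.53 against Dcon (SE 0.443, limma adjusted p = 0.00744). These comparisons share the Dcon libraries. Without Dcon replicate 4 the Dcon mean was 1211 ± 52.7 FPKM (SD, n = 4), the fold change at 3 weeks was -2.26 (limma adjusted p = 0.0266) and that at 8 weeks was -2.27 (limma adjusted p = 0.0638), so the call at 8 weeks rests on that library. The call at 3 weeks was kept whichever of the 10 libraries was left out, and was lost in a fit of only the groups compared (limma adjusted p = 0.122) and without both D3W libraries with fewest genes (-1.87, limma adjusted p = 0.126).

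In tracer-negative cells ENSDARG00000076833 did not pass the test: the log2 fold change was -1.32 for G3W against Gcon (SE 0.443, limma adjusted p = 0.45) and -1.20 for G8W against Gcon (SE 0.443, limma adjusted p = 0.588). The difference between tracer-positive and tracer-negative changes did not pass either. It was -1.20 at 3 weeks (SE 0.641, limma adjusted p = 0.901) and -1.33 at 8 weeks (SE 0.627, limma adjusted p = 0.987). The uninjured groups themselves did not overlap for this gene, with every Dcon library above every Gcon library, a placing that 0.244% of all genes had. Dcon against Gcon gave a log2 difference of 1.85 (SE 0.443, limma adjusted p = 0.0557), just outside the threshold, which passed without Gcon replicate 6 (limma adjusted p = 0.0462) and was 1.59 (limma adjusted p = 0.234) without Dcon replicate 4. That comparison was picked out after its values were seen.

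**Figure D1:**
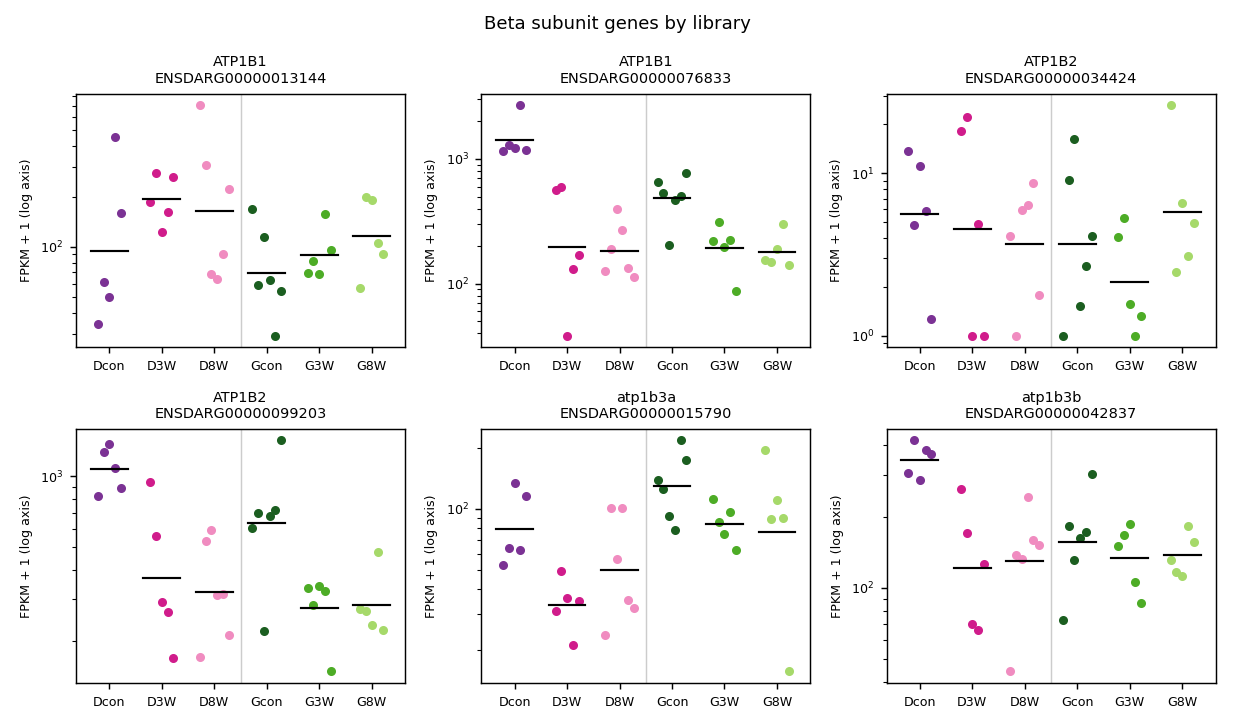
FPKM + 1 on a log axis for the 6 beta subunit genes, a point per library, in tracer-positive cells (Dcon, D3W, D8W) and tracer-negative cells (Gcon, G3W, G8W); bars are means on the log scale. For ENSDARG00000076833 the 5 Dcon libraries lie at 1166 to 2701 FPKM, above every other library.

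Neuron markers summed lower in the same groups. The 14 listed markers of V2a and glutamatergic neurons summed to 2336 to 6374 FPKM in D3W and 2552 to 5064 FPKM in D8W, against 5731 to 8538 FPKM in Dcon. None of the 12 tested passed in either comparison (limma, smallest adjusted p 0.225 and 0.293). An unadjusted limma p under 0.05 was found for 5 and 3 of them, where 12.5% and 10.8% of all genes had such a p. The median log2 fold changes of the 12 were -0.61 and -0.53, where those of all genes were 0.01 and 0.19. In bulk samples fewer cells of a type and less RNA per cell cannot be told apart. A large part of the sum was 1 gene, SNAP25 (ENSDARG00000020609), at 1135 to 3827 FPKM in D3W. It was at 2120 FPKM in Dcon replicate 4 and 2698 to 4856 FPKM in the other Dcon libraries. Dcon replicate 4 summed to 5731 FPKM with SLC17A6 (ENSDARG00000041150) at 5.81 FPKM, so the sum need not follow this glutamate transporter gene. Set against that sum, ENSDARG00000076833 had 12.4 to 122 FPKM per 1000 FPKM of neuron markers in D3W and 41.1 to 78.6 in D8W, against 137 to 471 in Dcon (137 to 202 without Dcon replicate 4), so the groups still did not overlap. The mean of this ratio in D3W was 0.301 of that in Dcon, where mean FPKM was 0.198 of it. For D8W the same values were 0.229 and 0.135. Set against the neuron markers, each of the other 5 beta genes overlapped Dcon at both times. Their ratios lay closer to 1 than those of FPKM for ENSDARG00000099203, at 0.680 in D3W and 0.584 in D8W of the Dcon mean, against 0.409 and 0.326 in FPKM. For atp1b3b the ratios were 0.676 and 0.759, against 0.393 and 0.409 in FPKM, and for atp1b3a they were 0.761 and 1.16, against 0.396 and 0.676. For ENSDARG00000013144 they lay further from 1, at 2.35 and 3.25, against 1.32 and 1.60 in FPKM. ENSDARG00000034424 had 2.04 and 1.18, against 1.33 and 0.576. Marker sums ran lower in D3W and D8W than in Dcon, so dividing by them raised each of these ratios. Mitochondrial protein genes held 17.3% ± 5.90 of FPKM in D3W (SD, n = 5) and 18.1% ± 5.66 in D8W (SD, n = 6), against 10.5% ± 2.37 in Dcon (SD, n = 5), and microglia markers summed to 341 to 11807 FPKM in D3W and 110 to 5118 FPKM in D8W, against 88.9 to 1253 FPKM in Dcon (88.9 to 525 without Dcon replicate 4). Of 9 tested microglia markers 0 passed at either time (limma, smallest adjusted p 0.0838 and 0.494). Their median log2 fold changes against Dcon were -0.64 in D3W and -0.10 in D8W, so most of the list did not share the higher sums. Of 12 tested astroglia and ependyma markers 1 passed as higher at each time (limma, smallest adjusted p 0.00832 and 0.0455), with medians of 0.86 and 1.53. Of 9 tested oligodendrocyte and Schwann cell markers 0 passed at either time (limma, smallest adjusted p 0.24 and 0.377), with medians of 1.65 and 0.83. An unadjusted limma p under 0.05 was found for 4 and 2 of them. These markers summed to 2100 to 19947 FPKM in D3W and 2211 to 9178 FPKM in D8W, against 3393 to 8873 FPKM in Dcon. The part of the mitochondrial, microglia, astroglia and oligodendrocyte differences in the result was not tested.

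**Figure D2:**
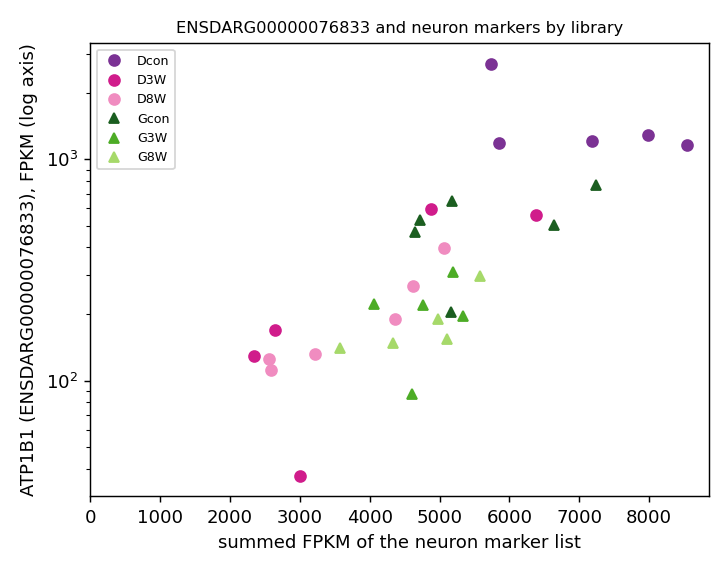
Summed FPKM of the neuron markers (x axis) and FPKM of ATP1B1 (ENSDARG00000076833, y axis, log scale), a point per library, circles for tracer-positive and triangles for tracer-negative cells. The Dcon libraries lie at the upper right, with marker sums of 5731 to 8538 FPKM, and the D3W library with the least of the gene, 37.2 FPKM, has a marker sum of 3002 FPKM.

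The beta gene with the highest mean was ATP1B2 (ENSDARG00000099203), at 532 FPKM over 32 libraries. Levels were 822, 1269.6, 1369, 1087 and 893 FPKM in Dcon and 946, 557, 292, 264 and 168 FPKM in D3W, and D8W ran from 170.3 through a median of 314 to 588 FPKM. Every D8W library was below every Dcon library in deposited FPKM, but not in scaled FPKM (FPKM divided by a median-ratio factor of its library, the values tested), where D8W reached 649 and Dcon began at 639, nor per neuron marker. D3W replicate 1 reached into the Dcon range. Gcon ran from 219.9 through a median of 685 to 1417 FPKM, with 333, 284, 340.3, 324 and 148 FPKM in G3W and 272, 267, 232, 474 and 222 FPKM in G8W. G3W and G8W overlapped Gcon through Gcon replicate 3 alone, at 219.9 FPKM, since the other Gcon libraries began at 602 FPKM. ENSDARG00000099203 did not pass in any comparison. Its log2 fold change was -1.19 for D3W against Dcon (SE 0.384, limma adjusted p = 0.133) and -1.31 for D8W against Dcon (SE 0.367, limma adjusted p = 0.17), beside -1.19 for G3W against Gcon and -0.93 for G8W against Gcon.

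The other copy, ATP1B2 (ENSDARG00000034424), averaged 5.36 FPKM and was at 0 in 5 libraries. Libraries had 12.7, 3.81, 10.1, 4.86 and 0.274 FPKM in Dcon and 17.3, 21.1, 0, 3.89 and 0 FPKM in D3W, and D8W ran from 0 through a median of 4.003 to 7.73 FPKM. Both D3W libraries at 0 are those with fewest detected genes. Gcon ran from 0 through a median of 2.40 to 15.3 FPKM, with 3.09, 4.32, 0.566, 0 and 0.318 FPKM in G3W and 25.3, 1.49, 5.55, 2.12 and 3.94 FPKM in G8W. By limma its log2 fold change was -0.17 for D3W against Dcon (SE 0.843, limma adjusted p = 0.982), -0.30 for D8W against Dcon (SE 0.807, limma adjusted p = 0.933) and 1.42 for G8W against G3W, its comparison of smallest p (SE 0.843, limma adjusted p = 1).

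ATP1B1 (ENSDARG00000013144), the other copy of the gene that was lower, did not pass, and its fold changes against Dcon were positive. Libraries had 33.3, 60.1, 48.6, 457 and 158 FPKM in Dcon and 184, 278, 122, 159.95 and 259.8 FPKM in D3W, and D8W ran from 63.2 through a median of 154 to 708 FPKM. Dcon replicate 4, the library with the highest CHAT, was the highest Dcon library here too. The log2 fold change was 1.37 for D3W against Dcon (SE 0.607, limma adjusted p = 0.326) and 1.21 for D8W against Dcon (SE 0.581, limma adjusted p = 0.455), and neither passed. Without Dcon replicate 4 they were 1.96 (limma adjusted p = 0.131) and 1.80 (limma adjusted p = 0.35). Without that library every D3W library lay above every Dcon library in scaled FPKM, at 147 to 345 against 25.9 to 139, a placing of 1.05% of all genes. The same held per neuron marker (2.51% of all genes), but not in deposited FPKM. In tracer-negative cells Gcon ran from 28.1 through a median of 60.2 to 168 FPKM, with 68.1, 80.5, 67.1, 156 and 94.4 FPKM in G3W and 55.3, 198, 188, 104 and 89.8 FPKM in G8W. Its smallest p was for D3W against G3W, a log2 difference of 1.73 (SE 0.607, limma adjusted p = 0.176), with every D3W library above every G3W library in scaled FPKM only (0.643% of all genes). Within D8W its highest libraries were those with the most astroglia and ependyma markers. D8W replicates 1, 2 and 6 had 708, 310.01 and 219.7 FPKM of the gene with marker sums of 5879, 1981 and 2867 FPKM, and the other 3 had 63.2 to 89.2 FPKM with sums of 477 to 563 FPKM. This order did not hold in D3W, where the highest library, replicate 2 at 278 FPKM, had the lowest sum, 1106 FPKM. In Dcon, replicate 4 had 457 FPKM with a sum of 577 FPKM, and replicate 5 had 158 FPKM with 3455 FPKM. The part of astroglia and ependyma in the level was not tested.

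The atp1b3 copies code for a further beta subunit. atp1b3b had 304, 419, 284, 380.3 and 367 FPKM in Dcon and 261, 169, 69.2, 65.0 and 124 FPKM in D3W, and D8W ran from 43.3 through a median of 144 to 241 FPKM. In deposited FPKM every D3W and D8W library was below every Dcon library. In scaled FPKM this held for D3W but not for D8W, which reached 246 where Dcon began at 236.5, and per neuron marker both groups overlapped Dcon. Neither comparison passed: -1.18 for D3W against Dcon (SE 0.401, limma adjusted p = 0.155) and -1.01 for D8W against Dcon (SE 0.384, limma adjusted p = 0.327). Gcon ran from 72.1 through a median of 166 to 301 FPKM, with 148, 166, 186, 105 and 85.4 FPKM in G3W and 129.9, 116, 111, 182 and 155 FPKM in G8W. Its smallest p was for Dcon against Gcon, 1.45 (SE 0.384, limma adjusted p = 0.0877), or 1.39 (limma adjusted p = 0.234) without Dcon replicate 4, with every Dcon library above every Gcon library in scaled FPKM only (0.776% of all genes).

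atp1b3a was lowest in D3W, with 30.1, 48.3, 35.3, 20.0 and 33.8 FPKM, against 51.6, 62.6, 134, 61.4 and 114 FPKM in Dcon and 111, 84.6, 73.6, 95.3 and 61.2 FPKM in G3W. In deposited FPKM every D3W library lay below every Dcon and every G3W library, the second placing shared by 5.53% of all genes. In scaled FPKM both placings were lost, with D3W reaching 46.4 where Dcon began at 40.1 and G3W at 44.3, and per neuron marker the placing below Dcon was lost. Neither comparison passed. The log2 fold change was -0.92 for D3W against Dcon (SE 0.482, limma adjusted p = 0.439), its comparison of smallest p, and -0.26 for D8W against Dcon (SE 0.462, limma adjusted p = 0.879). D8W ran from 22.7 through a median of 45.0 to 100.2 FPKM and Gcon from 77.6 through a median of 132 to 217 FPKM, and G8W libraries had 195, 87.6, 109.9, 88.7 and 14.7 FPKM.

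Counted over the beta genes, 1 of 6 passed, as lower, in D3W against Dcon, where 0.789% of the 22552 genes tested passed in either direction and 0.297% as lower. In D8W against Dcon 1 of 6 passed, as lower, against 0.0621% of all genes in either direction and 0.0222% as lower. Both calls are ENSDARG00000076833, and without Dcon replicate 4 the count was 1 in D3W against Dcon and 0 in D8W against Dcon. That gene was listed by its ID, and the members were chosen with earlier results of these data known. The shares of all genes are therefore given for description and carry no test of the family. An unadjusted limma p under 0.05 was found for 4 of 6 in each comparison, where 12.5% and 10.8% of all genes had such a p. ENSDARG00000013144 was among the 4 both times, as higher (limma unadjusted p = 0.0306 and 0.0451).

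The other comparisons gave no call. By limma, 0 beta genes passed in D8W against D3W (background 0.0399%; 0 with an unadjusted p under 0.05), G3W against Gcon (background 0.0931%; 2, where 7.01% of all genes had such a p), G8W against Gcon (background 0.031%; 2, where 6.28% had) and G8W against G3W (background 0.00443%; 0). The same held for Dcon against Gcon (background 0.288%; 3 with an unadjusted p under 0.05, where 10.6% of all genes had such a p), D3W against G3W (background 1.29%; 2, where 13.4% had), D8W against G8W (background 0.0665%; 0) and the interactions at 3 weeks (background 0.00443%; 0) and 8 weeks (background 0%; 1, where 4.55% had).

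Beta genes without overlap between groups were counted as well, and the count depended on the scale. In deposited FPKM of D3W, 3 of 6 had every library below every Dcon library, against 1.18% of all genes, and these were ENSDARG00000076833, atp1b3a and atp1b3b. In deposited FPKM of D8W, 3 of 6 were so placed, against 1.45% of all genes, with ATP1B2 (ENSDARG00000099203) in place of atp1b3a. In scaled FPKM the counts were 2 of 6 in D3W, against 0.83% of all genes, and 1 of 6 in D8W, against 0.545%. Per neuron marker they were 1 of 6 at both times, against 0.2% of all genes in D3W and 0.0931% in D8W. ENSDARG00000076833 was so placed on every one of these scales at both times, with or without Dcon replicate 4. The median log2 fold change of the 6 genes was -1.05 for D3W against Dcon and -0.65 for D8W against Dcon, where the medians of all genes were 0.01 and 0.19. It was 0.85 for D3W against G3W and 0.90 for Dcon against Gcon, where the medians of all genes were -0.26 and -0.15. With FPKM as deposited the last 2 medians of all genes were -0.58 and -0.31, and with quantile normalization -0.11 and -0.02.

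**Figure D3:**
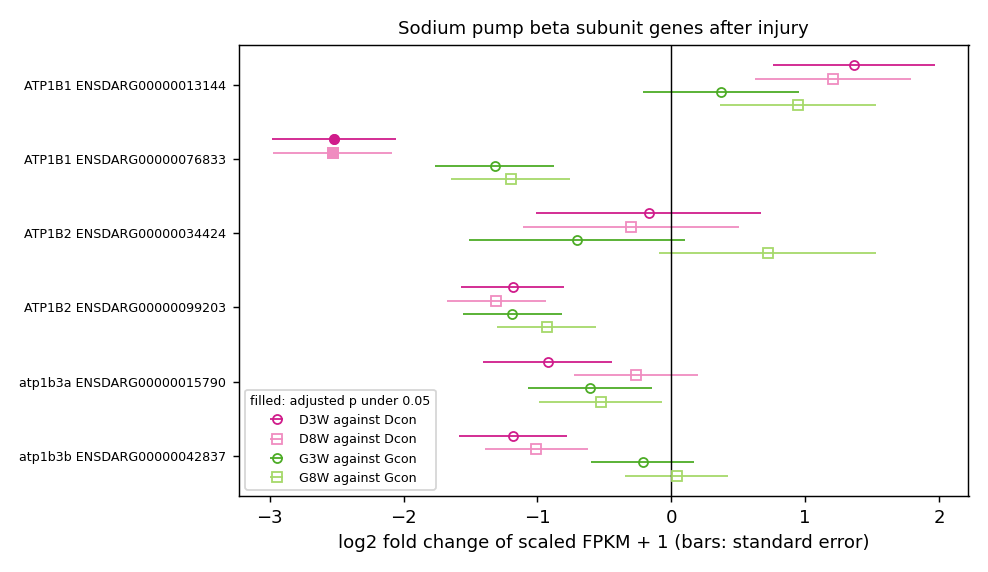
Log2 fold change with its standard error (x axis) of the 6 beta genes (rows) for D3W and D8W against Dcon and for G3W and G8W against Gcon; filled symbols have an adjusted p under 0.05. Only ENSDARG00000076833, at -2.52 and -2.53 against Dcon, is filled.

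The make-up of the beta transcripts also differed, which is given as a description without a test. Summed over the 6 beta genes the level was 3191 ± 887 FPKM in Dcon (SD, n = 5), 1124 ± 663 FPKM in D3W (SD, n = 5) and 1007 ± 237 FPKM in D8W (SD, n = 6). Without Dcon replicate 4 the Dcon sum was 2815 ± 333 FPKM (SD, n = 4). Every D3W library, at 555 to 1999.9 FPKM, and every D8W library, at 726 to 1269 FPKM, lay below the lowest Dcon library, at 2390.1 FPKM. Per 1000 FPKM of neuron markers the groups overlapped, with a beta sum of 185 to 342 FPKM in D3W and 214 to 420.3 FPKM in D8W, against 279.9 to 819 FPKM in Dcon (279.9 to 464 without Dcon replicate 4). In tracer-negative cells the sum was 1634 ± 623 FPKM in Gcon (SD, n = 6), 811 ± 189 FPKM in G3W and 853 ± 188 FPKM in G8W (SD, n = 5 each). These groups overlapped Gcon through Gcon replicate 3 alone, at 774 FPKM, since the other Gcon libraries began at 1445 FPKM.

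ENSDARG00000076833 made up 6.70% to 35.7% of the beta sum in D3W and 11.6% to 31.95% in D8W, against 39.7% to 57.6% in Dcon, without overlap. In tracer-negative cells its share was 18.2% to 25.96% in G8W and 18.2% to 33.4% in G3W, against 26.4% to 39.8% in Gcon, so that G8W also lay wholly below its control and G3W overlapped it. The other copy of ATP1B1, ENSDARG00000013144, made up a median of 21.9% in D3W and 18.3% in D8W, against a median of 1.94% in Dcon. Its D3W libraries ran from 9.18% to 34.4% and its Dcon libraries from 1.39% to 9.75%, so these groups overlapped, through Dcon replicate 4 alone, since the other 4 Dcon libraries reached 5.83%. D8W ran from 5.41% to 66.0% and overlapped Dcon with or without that library.

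**Figure D4:**
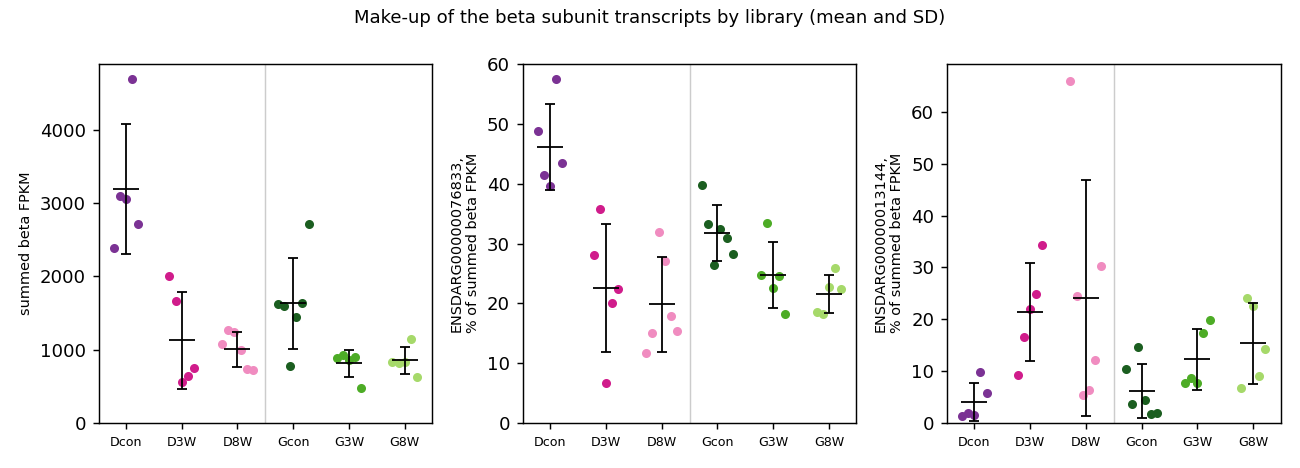
Summed FPKM of the 6 beta genes (left) and the shares of ENSDARG00000076833 (middle) and ENSDARG00000013144 (right) in that sum, a point per library, with mean and SD, for Dcon, D3W, D8W, Gcon, G3W and G8W. The share of ENSDARG00000076833 averages 46.2% in Dcon and 19.8% to 31.8% in the other groups.

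Over the 32 libraries, the beta genes most alike were ENSDARG00000076833 and ATP1B2 (ENSDARG00000099203), with a Pearson r of 0.84 and a Spearman rho of 0.86 on the log2 scale. Libraries of a group share its condition, so these values describe the data and carry no test. Among other named genes the one most like ENSDARG00000076833 was SH3GL2 (ENSDARG00000023600, endophilin, which acts in synaptic vesicle recycling), with r 0.89 and rho 0.88. It averaged 503 FPKM in Dcon, 186 FPKM in D3W and 113 FPKM in D8W. After it came ALDOC (ENSDARG00000019702, aldolase of glycolysis, r 0.82), GLRB (ENSDARG00000052782, the beta subunit of the glycine receptor, r 0.82), IDH2 (ENSDARG00000003795, a mitochondrial isocitrate dehydrogenase, r 0.82) and ATP6V1C1 (ENSDARG00000023967, a subunit of the vacuolar proton pump, r 0.81). For ENSDARG00000099203 they were ITM2C (ENSDARG00000043448, r 0.85), GPI (ENSDARG00000012987, r 0.84), ALDOC (r 0.84), ATP6V1B2 (ENSDARG00000043465, r 0.84) and ATP6AP2 (ENSDARG00000008735, r 0.83).

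Regulators and relatives of the pump were read from a list of 16 further IDs, of which 10 were tested. In D3W against Dcon 1 of the 10 passed, where 0.789% of all genes did. An unadjusted limma p under 0.05 was found for 4 of the 10, where 12.5% of all genes had such a p. The gene that passed was fxyd3, of the FXYD family of pump regulators. It had 63.8, 106, 557, 178 and 70.5 FPKM in D3W, all above the 0, 8.15, 25.3, 19.96 and 44.6 FPKM of Dcon, a placing of 0.603% of all genes. D3W against Dcon gave a log2 fold change of 3.81 (SE 0.907, limma adjusted p = 0.0342). The call was lost on leaving out any 1 of Dcon replicates 1, 2 and 4 and D3W replicates 3, 4 and 5, with a limma adjusted p of up to 0.12, and in a further 6 of 9 fits with other settings. Its 2 highest tracer-positive libraries, D3W replicate 3 at 557 FPKM and D8W replicate 1 at 377 FPKM, had the highest microglia marker sums of these libraries, 11807 and 5118 FPKM. Of the tracer-positive libraries, D3W replicate 3 also had the highest oligodendrocyte and Schwann cell sum, 19947 FPKM. D8W replicate 1 had their highest astroglia and ependyma sum, 5879 FPKM. Against this order, D8W replicate 6 had 136 FPKM of fxyd3 with the lowest microglia sum of D8W, 110 FPKM. Its oligodendrocyte and Schwann cell sum, 2211 FPKM, was also the lowest of D8W. The part of any of these cell types in the result was not tested. In D8W fxyd3 averaged 116 ± 135 FPKM (SD, n = 6) and did not pass against Dcon (2.68, SE 0.868, limma adjusted p = 0.23). In tracer-negative cells its mean was 93.9 FPKM in G3W and 93.3 FPKM in G8W, against 34.6 FPKM in Gcon. Neither passed, at 1.90 (limma adjusted p = 0.673) and 2.18 (limma adjusted p = 0.668). The difference between tracer-positive and tracer-negative changes did not pass at 3 weeks (1.90, limma adjusted p = 0.922) or 8 weeks (0.507, limma adjusted p = 0.993).

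In D3W against G3W, 1 of these 10 genes passed as higher and 1 as lower, where 1.29% of all genes passed in either direction. An unadjusted limma p under 0.05 was found for 5 of the 10, where 13.4% of all genes had such a p. fxyd7, of the same family and found in brain in mammals, had 824, 463, 424, 192 and 564 FPKM in D3W and 122, 100.1, 273, 158 and 85.3 FPKM in G3W, with D3W replicate 4 inside the G3W range. The log2 difference was 2.34 (SE 0.512, limma adjusted p = 0.0138), and it was 1.71 (limma adjusted p = 0.0587) with FPKM as deposited, 1.76 (limma adjusted p = 0.109) with quantile normalization and 2.05 (limma adjusted p = 0.154) without D3W replicates 3 and 5, and passed in no such case. With the number of detected genes in the model it was 2.73 (limma adjusted p = 0.0529). nkain4 (ENSDARG00000062699), whose family binds the beta subunit of the pump in mammals and flies, had 0, 5.44, 0, 1.59 and 0 FPKM in D3W and 27.9, 33.1, 38.3, 37.3 and 35.8 FPKM in G3W. All D3W libraries lay below the G3W libraries, a placing of 5.53% of all genes. The log2 difference of D3W against G3W was -3.82 (SE 0.883, limma adjusted p = 0.02). This call was lost without D3W replicate 3 or 5 (limma adjusted p = 0.0581 and 0.0602) and with the number of detected genes in the model (-2.56, limma adjusted p = 0.44). This copy of nkain4 was low in uninjured tracer-positive cells too, at 0.0973 to 10.1 FPKM in Dcon, against 0 to 43.4 FPKM in Gcon. Dcon against Gcon was -2.32 (limma adjusted p = 0.276) and D3W against Dcon -0.66 (limma adjusted p = 0.835), and neither passed. The other copy, NKAIN4 (ENSDARG00000042961), averaged 42.1 FPKM in D3W, 51.0 FPKM in G3W, 44.7 FPKM in Dcon and 63.8 FPKM in Gcon. It did not pass in D3W against G3W (0.27, limma adjusted p = 0.907) or in Dcon against Gcon (0.07, limma adjusted p = 0.995).

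ATP1B4 (ENSDARG00000053262) is a further gene of the beta family that was not among the listed names. The counts and sums of the 6 beta genes therefore leave it out. It had 28.1, 15.3, 0, 45.4 and 41.7 FPKM in D3W, against 77.7 FPKM in Dcon replicate 5 and at most 0.498 FPKM in the other Dcon libraries. It did not pass (2.55, SE 1.16, limma adjusted p = 0.34, or 2.22 with an adjusted p of 0.529 without Dcon replicate 4). Astroglia and ependyma markers were also highest of Dcon in replicate 5, with a sum of 3455 FPKM against 450 to 969 FPKM in the other 4, and ran from 1106 to 2932 FPKM in D3W. Their part in the level of ATP1B4 was not tested.

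Other genes that move ions across membranes were read from 2 lists, 23 tested calcium pumps and sodium-calcium exchangers and 15 tested cation-chloride cotransporters and sodium-proton exchangers. By limma 0 passed in any of the 9 comparisons and 2 interactions, where 0% to 1.29% of all genes passed. At most 4 of each list had an unadjusted limma p under 0.05. For the 23 this was in D8W against G8W, where 6.98% of all genes had such a p. For the 15 it was in D3W against Dcon, where 12.5% had.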

How the data were processed

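RNA from sorted V2a interneurons was sequenced in 32 libraries of 6 groups, made per the labels' protocols with a low-input cDNA kit. Values are the authors' FPKM, deposited as 1 table of 42370 rows. HISAT2 2.0.5, HTSeq 0.9.1 and danRer11 are listed, with no role, in the submitters' processing notes, and gene lengths, the counter's settings and read strand are not given in the sources used here. Libraries were grouped by their titles. No 2 libraries shared an FPKM above 0 for any gene, so none was counted as a repeat.

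Each library was scaled by the median of its ratios over 6387 genes, and the log2 of scaled FPKM plus a pseudocount of 1 was tested. This scale understates fold changes of low genes. The 22552 genes (17480 with a symbol) that reached 1 FPKM in 5 libraries or more were fitted in 1 limma model (3.58.1, R 4.3.3, trend and robust) with a mean per group. Tests are two-sided, with Benjamini-Hochberg adjustment over all genes tested and calls under 0.05. Tables and figures used Python 3.11.15, pandas 2.3.3, numpy 2.4.6, scipy 1.17.1 and matplotlib 3.10.9. The code was tested on simulated data. Levels, per-library values and ranges are deposited FPKM. Depth limits cover counting error only.

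Fold changes are given for D3W and D8W against Dcon, for each call, and for each beta gene's comparison of smallest p. Other comparisons of ENSDARG00000076833 were followed, and those of fxyd3 and nkain4 without a call given, after their values were seen. Neighbour genes are the 5 with the highest r, and list genes are named where they passed. ATP1B4 and the NKAIN4 copy that did not pass are named besides. The members and lists were chosen with earlier results of these data known. Alternatives were another pseudocount, no filter, other scalings, array weights, a replicate block, a fit restricted to the compared groups and leaving out each library. A covariate for the number of detected genes and a fit without both libraries with fewest genes were added after seeing the data, as were following the list genes under every alternative and comparing group ranges in scaled FPKM, per neuron marker and without Dcon replicate 4. The alpha subunit genes and 1 marker gene are not reported here.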

Additional observations from a re-analysis of the deposited data

Results flagged for a closer look

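In 36 groups of 5 or 6 values, made by 6 beta genes in 6 groups of libraries, 4 had a library far from the others of its group, where chance flags about 1 in 20. Dcon replicate 4 had 2700.65 FPKM of ATP1B1 (ENSDARG00000076833), against 1166 to 1284 FPKM in the other Dcon libraries, and is the library with the lowest SLC17A6 (ENSDARG00000041150) and the highest CHAT. The same ATP1B1 gene was high in G8W replicate 4, at 298 FPKM against 141 to 190.01 FPKM in the others. G3W replicate 5 was low in ATP1B2 (ENSDARG00000099203), at 148 FPKM against 284 to 340.3 FPKM. D8W replicate 1 was low in atp1b3b, at 43.3 FPKM against 132 to 241 FPKM.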

How the results depend on the processing

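The number of beta genes called in D3W against Dcon was 1, and became 0 with only the groups compared and 0 without both libraries with fewest genes. In D8W against Dcon it was 1, and ran from 0 to 1 with single libraries left out, with 0 only without Dcon replicate 4. It was 0 in Dcon against Gcon, and 1 with array weights and with only the groups compared (ENSDARG00000076833), and ran from 0 to 1 there with single libraries left out. Of the further pump and FXYD genes, 1 was called in D3W against Dcon, and 0 with no filter, quantile normalization, array weights, the replicate block, only the groups compared or without both libraries with fewest genes (0 to 1 with single libraries left out). In D3W against G3W 2 were called, 1 with quantile normalization, 0 with a covariate for detected genes and 0 without both libraries with fewest genes (1 to 3 with single libraries left out). The cation-chloride and sodium-proton list had 0 called in D3W against Dcon, and 0 to 1 with single libraries left out.

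Signs turned only for small changes that passed in no fit. ENSDARG00000034424 was 0.69 with array weights, 1.24 without both libraries with fewest genes and -0.70 to 0.36 with single libraries left out in D3W against Dcon, and -0.79 to 0.10 in D8W against Dcon. ENSDARG00000076833 was 0.20 with quantile normalization in D8W against D3W (-0.53 to 0.31 with single libraries left out) and -0.10 with FPKM as deposited in G8W against G3W (-0.15 to 0.28). The cause of these changes was not tested. Over all genes the calls numbered 178 in D3W against Dcon (15 to 200 over the settings other than single libraries), 14 in D8W against Dcon (7 to 23), 290 in D3W against G3W (28 with a covariate for detected genes, 750 with FPKM as deposited), 65 in Dcon against Gcon (35 to 157), 21 in G3W against Gcon (8 to 112), 7 in G8W against Gcon (1 to 87), 15 in D8W against G8W (6 to 35), 9 in D8W against D3W (1 to 9) and 1 in G8W against G3W (0 to 16). With single libraries left out they ran from 59 (without D3W replicate 3) to 570 (without D3W replicate 2) in D3W against Dcon, from 5 (without Dcon replicate 4) to 33 (without D8W replicate 3) in D8W against Dcon, from 3 (without D8W replicate 2) to 49 (without D3W replicate 2) in D8W against D3W, from 145 to 274 in D3W against G3W, from 20 (without Dcon replicate 4) to 93 in Dcon against Gcon, from 8 to 18 in G3W against Gcon, from 2 to 7 in G8W against Gcon, from 7 to 26 in D8W against G8W and from 0 to 3 in G8W against G3W.

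Libraries with the same replicate number did not deviate alike: over 76 such pairs the deviations had a mean correlation of -0.0017, and 2 pairs were over 0.1. Whether such libraries share fish, a day or a batch is not stated, and this correlation cannot show it. With the replicate block 1 beta gene was called in each of D3W and D8W against Dcon. Of 36 group levels, 3 moved by over 1 SD with scaled FPKM. For ENSDARG00000034424 the SE of 0.843 and 0.807 was larger than its fold changes against Dcon.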
